A study of Mus musculus with 12 samples.

Results

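Small leucine-rich proteoglycans are secreted matrix proteins whose compact core is built from leucine-rich repeats. They bind collagen fibrils and help to set fibril width and spacing, and many of them carry chondroitin, dermatan or keratan sulfate chains. In cartilage they lie on the collagen network and close to the cells, and several bind growth factors such as those of the TGF-beta family. The 10 genes described here are Dcn, Bgn, Aspn, Fmod, Lum, Prelp, Omd, Epyc, Ogn and Chad, chosen by gene symbol out of 34509 symbols on the array, with every probe of each. Together they have 15 probes, of which Dcn has 5 and Ogn has 2.

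RNA came from femoral head cartilage of 21-day-old TS-4/5∆cat mice, in which the catalytic domains of both ADAMTS-4 and ADAMTS-5 are deleted in frame. All 3 groups carried these deletions, so that no wildtype cartilage enters these comparisons. The explants were left untreated, given 10 ng/mL IL-1α (an inflammatory cytokine that drives cartilage breakdown) or given 10 µM retinoic acid (a vitamin A derivative with the same effect), for 3 days. Each group had 4 bead arrays, 2 from the Donut line in batch 1 and 2 from the Gertrude line in batch 2, so that line and batch cannot be told apart. The labels place several hips in a well and do not tie arrays to animals. The paper's methods name separate, unpooled mice, fewer per treatment than there are arrays, and this conflict could not be settled, so that a p-value here measures the spread between arrays.

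Levels are log2 normalized intensities, and a probe was called detected on an array when its detection p was under 0.05. Across kept probes, r was 0.983 to 0.995 between arrays sharing treatment and batch and 0.868 to 0.902 between batches within a treatment. Between treatments within a batch it was 0.932 to 0.968, so that arrays were more alike by batch than by treatment. Batch 2 arrays had more detected probes on every array, 16732 to 19485 against 13786 to 14965 in batch 1, and the 19485 belonged to replicate 2 of the untreated batch 2 arrays. Cyp26a1, Cyp26b1 and Rarb rose with retinoic acid and Nos2 with IL-1α, as checks of the treatments. Of 8 chondrocyte markers kept for testing all fell with retinoic acid and 6 fell with IL-1α. Their summed intensity was 62453 to 63554 untreated, 35230 to 36833 with IL-1α and 10069 to 10426 with retinoic acid in batch 1, and 69066 to 73172, 46112 to 46641 and 14884 to 15275 in batch 2. In explants, fewer cells of a type and less RNA per cell cannot be told apart.

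Where the genes sit is shown first, because it sets the members that are neighbours beside members that are not. By RefSeq's order of coding genes in GRCm38.p6, Dcn and Lum are adjacent on chromosome 10, Prelp and Fmod are adjacent on chromosome 1, and Aspn, Omd and Ogn follow each other on chromosome 13. Bgn lies on chromosome X and Chad on chromosome 11. RefSeq promoter sequences were at hand for 8 of the 10 genes. The 250 bases before the start site are printed for the neighbours Omd and Ogn, whose log2 fold changes with retinoic acid in batch 2 were -3.97 and -0.48, and for Chad and Bgn, which fell with it and have no member beside them. Capitals mark matches to words that were searched for. These were the TATA word TATAAA, on the gene's strand, and on both strands the CAAT-box word CCAAT, the GC-box word GGGCGG, the AP-1 word TGANTCA, the nuclear receptor word AGGTCA, and AACAAT as a word of SOX factors.
Omd, chr13:49582212-49582461, plus strand: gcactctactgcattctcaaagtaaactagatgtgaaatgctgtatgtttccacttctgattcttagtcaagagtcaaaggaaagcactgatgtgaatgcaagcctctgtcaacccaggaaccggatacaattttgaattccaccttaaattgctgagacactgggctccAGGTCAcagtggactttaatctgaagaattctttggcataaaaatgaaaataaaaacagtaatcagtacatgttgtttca
Ogn, chr13:49607765-49608014, plus strand: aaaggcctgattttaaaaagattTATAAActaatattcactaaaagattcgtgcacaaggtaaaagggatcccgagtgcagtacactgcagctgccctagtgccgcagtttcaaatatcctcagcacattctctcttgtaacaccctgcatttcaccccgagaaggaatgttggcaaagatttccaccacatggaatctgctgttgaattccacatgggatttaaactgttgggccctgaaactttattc
Chad, chr11:94564797-94565046, plus strand: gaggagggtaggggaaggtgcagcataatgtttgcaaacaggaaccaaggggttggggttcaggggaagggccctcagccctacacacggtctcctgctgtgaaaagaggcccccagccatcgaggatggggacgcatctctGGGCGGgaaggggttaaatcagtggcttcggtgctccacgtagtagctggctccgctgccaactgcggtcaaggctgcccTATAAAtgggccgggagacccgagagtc
Bgn, chrX:73483351-73483600, plus strand: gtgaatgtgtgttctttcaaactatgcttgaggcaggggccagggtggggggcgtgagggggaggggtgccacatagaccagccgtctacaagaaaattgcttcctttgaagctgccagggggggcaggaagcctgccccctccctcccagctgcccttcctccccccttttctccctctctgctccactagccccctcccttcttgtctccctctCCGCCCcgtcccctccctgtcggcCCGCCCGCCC
The Omd window holds AGGTCA, a word that retinoic acid receptors and other nuclear receptors can bind, 80 to 75 bases before the start, and 14% of all promoter windows of this length hold it. Chad has TATAAA 28 to 23 bases before its start, a word found in 8.12% of windows, and Ogn has it 227 to 222 bases before. Bgn holds GGGCGG on the opposite strand at 3 places, of which the last 2 overlap each other, and 32.7% of windows hold that word. None of the 8 genes matched TGANTCA in its window, against 6.87% of all windows. These matches describe letters and say nothing about binding.

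Of the 10 genes, 8 passed the filter of detection on at least 4 of 12 arrays. Dcn, Bgn, Prelp and Chad were detected on all 12 arrays, Omd on 11, Fmod and Lum on 10, and the brighter Ogn probe on 6. Epyc and Aspn were detected on none. Epycan (Epyc), a proteoglycan of epiphyseal cartilage, read between 4.47 and 4.76, and asporin (Aspn), which carries a stretch of aspartate and binds TGF-beta, read between 4.43 and 4.62. Both genes have a single probe, so their absence from the detected set rests on that probe.

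**Figure D1:**
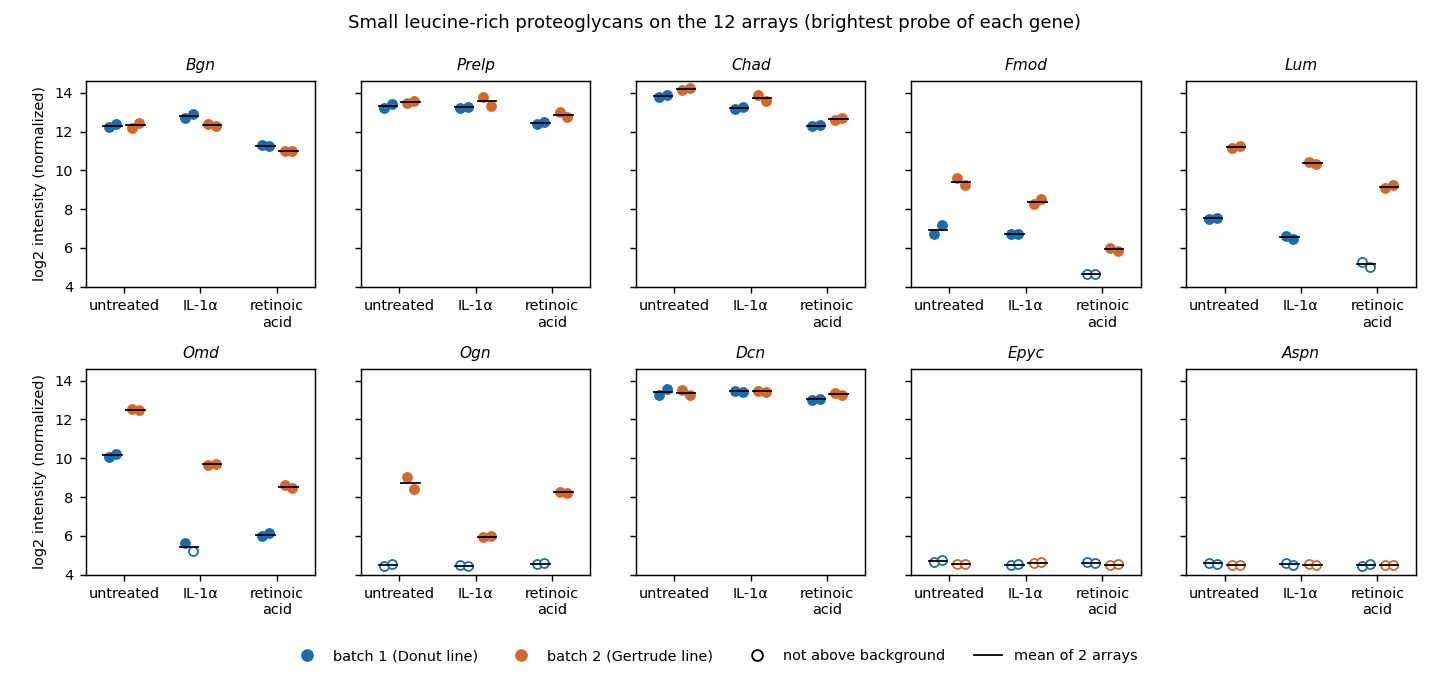
Log2 normalized intensity of the brightest probe of each of the 10 genes, with 1 point per array, treatments on the x axis, batches by colour, open points for arrays where the probe was not above background and bars for the mean of 2 arrays. Retinoic acid arrays lie below the untreated arrays of the same batch for Bgn, Prelp, Chad, Fmod, Lum and Omd. Ogn is above background only in batch 2, and Epyc and Aspn on no array.

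With retinoic acid, 6 of the 8 genes fell against untreated and 0 rose by limma, and the count at an unadjusted p under 0.05 was also 6 lower and 0 higher. Among all symbols tested, 18.1% fell and 18.6% rose. The 6 genes were Omd, Fmod, Lum, Chad, Bgn and Prelp, and Dcn and Ogn did not pass by their brightest probes. The median log2 fold change of the 8 genes was -1.35, beside 0.01 over all symbols.
With IL-1α, 5 of the 8 genes fell against untreated and 0 rose (15% of symbols fell and 15.1% rose), and the same counts were found at an unadjusted p under 0.05. They were Omd, Ogn, Lum, Fmod and Chad, and Bgn, Prelp and Dcn did not pass. The median log2 fold change was -0.57, beside 0.01 over all symbols. Only 3 genes passed without replicate 1 of the untreated batch 2 arrays, or without either IL-1α array of batch 2.
Between the treatments, 5 genes were lower with retinoic acid than with IL-1α (16.4% of symbols). By its brighter probe 1 gene, Ogn, was higher (16.1% of symbols), and its dimmer probe did not pass. The lower genes were Fmod, Bgn, Lum, Chad and Prelp. Their log2 fold changes for retinoic acid over IL-1α were -2.26, -1.45, -1.31, -1.0 and -0.74, with limma's adjusted p from 2.5e-06 to 0.000393. All but Lum had the 4 retinoic acid arrays below the 4 IL-1α arrays. All 3 comparisons use the same 12 arrays and share their groups.

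Osteomodulin (Omd, ILMN_1238597), a keratan sulfate proteoglycan made by bone-forming cells, had the largest falls of the 8 genes with both treatments. Its untreated levels were 10.07 and 10.23 in batch 1, and 12.53 and 12.49 in batch 2. IL-1α gave 5.62 and 5.22 in batch 1, the second not above background, followed by 9.67 and 9.71 in batch 2. Retinoic acid gave 5.98 and 6.14, followed by 8.63 and 8.45. Every untreated array was above every treated array, in both batches together. For Omd the log2 fold change came to -4.03 with retinoic acid (standard error, SE, 0.32, adjusted p = 6.61e-07) and -3.78 with IL-1α (SE 0.32, adjusted p = 3.16e-06). For each treatment the two-sided exact permutation test of 4 arrays against 4 gave p = 0.0286, the smallest it allows. Here and below this test exchanged arrays without regard to batch, so that differences in level between the batches enter it.
The order of the treatments for Omd was not the same in both batches. IL-1α gave a log2 fold change of -4.73 in batch 1 and -2.82 in batch 2, a difference that limma called (1.91, adjusted p = 0.000283), and the first value includes an array not above background. Retinoic acid gave -4.09 and -3.97. Retinoic acid was therefore above IL-1α by 0.64 in batch 1 and below it by 1.15 on the log2 scale in batch 2, and over both batches the difference was -0.25 (95% interval -0.95 to 0.44, adjusted p = 0.606).
Markers of osteoblasts and osteocytes moved beside Omd. Of 6 kept markers 5 fell with retinoic acid and 5 with IL-1α, among them Ibsp, which encodes bone sialoprotein, with log2 fold changes of -3.06 and -2.45. Their summed intensity in batch 1 was 10172 to 10936 untreated, 1974 to 2049 with IL-1α and 3263 to 3529 with retinoic acid. In batch 2 it was 8501 to 9742, 3997 to 4100 and 2314 to 2528. By these sums, in which bright genes weigh most, the lower treatment was IL-1α in batch 1 and retinoic acid in batch 2, as for Omd. Single markers were divided for retinoic acid against IL-1α over both batches. Akp2 and Phex were higher (log2 fold changes of 1.02 and 0.77), Ibsp was lower (-0.61) and 3 were not called. Of the same list, Dmp1 and Sost were detected on no array, Mepe on 4 and Phex on 12. Mepe and Phex fell with both treatments. The part of these cells in the Omd values was not tested.

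Fibromodulin (Fmod, ILMN_1230020), which binds collagen and takes part in fibril assembly, fell with retinoic acid. Its untreated levels were 6.73 and 7.17 in batch 1, and 9.58 and 9.23 in batch 2. With retinoic acid the probe was not above background on both batch 1 arrays, at 4.64 and 4.67, and read 6.00 and 5.85 in batch 2. The 4 retinoic acid arrays lay below the 4 untreated ones (p = 0.0286 by the two-sided exact permutation test). The fitted log2 fold change of Fmod was -2.88 (SE 0.21, adjusted p = 3.07e-07).
Within batch 1 Fmod was at least 3.03-fold lower with retinoic acid, a bound that sets the untreated mean against the lowest detected signal of each retinoic acid array or the probe's own signal where that was higher. In batch 2, where all arrays were above background, the log2 fold change was -3.48. Limma called the difference of the effect between batches (-1.19, adjusted p = 0.0164), but the batch 1 value is a bound, so that no difference in size is shown.
With IL-1α, Fmod stood at 6.72 and 6.72 in batch 1, then at 8.25 and 8.53 in batch 2. Within each batch these lay below the untreated arrays, and over both batches together they overlapped them. The log2 fold change was -0.62 (SE 0.21, adjusted p = 0.0437), made up of -0.23 in batch 1 and -1.02 in batch 2. The call was lost without 7 of the 12 arrays, each taken singly, namely the untreated arrays other than replicate 1 of batch 1 and all 4 IL-1α arrays, with adjusted p from 0.0526 to 0.171. It was also lost under 6 other settings.

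Lumican (Lum, ILMN_2773259), a fibril-binding relative of fibromodulin, fell with both treatments. Untreated levels were 7.50 and 7.55 in batch 1, then 11.14 and 11.27 in batch 2. With IL-1α the values were 6.61 and 6.48, and 10.44 and 10.32. With retinoic acid they were 5.30 and 5.00, both not above background, and 9.07 and 9.22. Within each batch the order was untreated, IL-1α and retinoic acid with no overlap, and over both batches together the groups overlapped (exact permutation test of retinoic acid against untreated, two-sided, p = 0.171).
The log2 fold change of Lum was -0.90 with IL-1α (SE 0.12, adjusted p = 0.000132), with -0.98 and -0.82 in the 2 batches. For retinoic acid it was -2.22 (SE 0.12, adjusted p = 2.44e-08). In batch 1 the fall was at least 4.53-fold, by the bound used for Fmod, and in batch 2 the log2 fold change was -2.06. Without batch and replicate in the model neither call passed, with adjusted p of 0.897 for IL-1α and 0.437 for retinoic acid.

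PRELP (Prelp, ILMN_2739760), a proteoglycan that links collagen to heparan sulfate, is the neighbour of Fmod, and its change was smaller. Untreated levels were 13.19 and 13.41 in batch 1, then 13.46 and 13.56 in batch 2, against 12.40 and 12.51, and 13.01 and 12.74, with retinoic acid. These groups did not overlap (two-sided exact permutation test, p = 0.0286). The log2 fold change was -0.74 (SE 0.12, adjusted p = 0.000374), with -0.84 and -0.64 in the 2 batches.
With IL-1α, Prelp stood at 13.23 and 13.28 in batch 1, then at 13.78 and 13.33 in batch 2, overlapping the untreated values. Its log2 fold change with IL-1α was 0.00 with a 95% interval of -0.26 to 0.27 (adjusted p = 0.987).

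Chondroadherin (Chad, ILMN_2659340), a cartilage protein that cells bind through integrins, fell with both treatments and most with retinoic acid. Untreated levels were 13.78 and 13.86 in batch 1, then 14.15 and 14.24 in batch 2, and the last of these was the highest normalized value on any array. The raw intensity of Chad was the brightest of all 46632 probes on that array. IL-1α gave 13.17 and 13.25, then 13.90 and 13.60. Retinoic acid gave 12.28 and 12.33, and 12.62 and 12.68, below every other array.
For Chad the log2 fold change was -1.53 with retinoic acid (SE 0.11, adjusted p = 3.65e-07; -1.51 and -1.54 in the 2 batches) and -0.52 with IL-1α (SE 0.11, adjusted p = 0.00443; -0.61 and -0.44). Retinoic acid was lower than IL-1α by 1.00 on the log2 scale, with an adjusted p of 1.89e-05 and no overlap of the arrays (two-sided exact permutation test, p = 0.0286). After the batch and replicate means were subtracted, the profile of Chad over the 12 arrays was close to that of Acan, the gene of aggrecan (r = 0.995), which ranked second among all symbols after Rab17 (r = 0.996).

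Biglycan (Bgn, ILMN_2637249), which carries chondroitin or dermatan sulfate chains and can act on Toll-like receptors when set free, fell with retinoic acid. Untreated levels were 12.21 and 12.39 in batch 1, then 12.19 and 12.46 in batch 2. Retinoic acid gave 11.32 and 11.23, and 10.98 and 11.01. The groups were apart, and the log2 fold change was -1.18 (SE 0.13, adjusted p = 1.7e-05), with -1.02 and -1.33 in the 2 batches.
IL-1α did not lower Bgn by the test. The levels were 12.72 and 12.93 in batch 1, above the untreated arrays, and 12.40 and 12.29 in batch 2, among them. Its log2 fold change was 0.27 over both batches (95% interval -0.02 to 0.56, adjusted p = 0.144), 0.52 in batch 1 (adjusted p = 0.014) and 0.02 in batch 2 (adjusted p = 0.941). Limma did not call the difference between the batches (-0.50, adjusted p = 0.192, unadjusted p = 0.0321).

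The batches were also fitted apart. In batch 1, 6 of the 8 genes fell with retinoic acid (17% of symbols) and 0 rose (16.6%), and in batch 2 there were 7 lower (16%) and 0 higher (16.6%), with Ogn added. With IL-1α 3 genes fell in batch 1 (18.2% of symbols), namely Lum, Chad and Omd, and 1, Bgn, rose (16.7%). In batch 2 there were 5 lower (10.9%), the same genes as over both batches, and 0 higher (9.58%). These counts at an unadjusted p under 0.05 by limma were 7, 7, 3 and 5 lower and 0, 0, 1 and 0 higher. Limma called a difference of the effect between batches for 1 gene with retinoic acid, Fmod (2.7% of symbols), for 2 with IL-1α, Omd and Ogn (4.57%), and for the same 2 between the treatments (8.91%). Of these, only Omd was above background in every group of both batches, on 1 of 2 arrays with IL-1α in batch 1. For Fmod the batch 1 value is a bound, and the brighter Ogn probe was not above background in batch 1. The calls for Fmod and Ogn therefore do not show effects of unequal size.

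**Figure D2:**
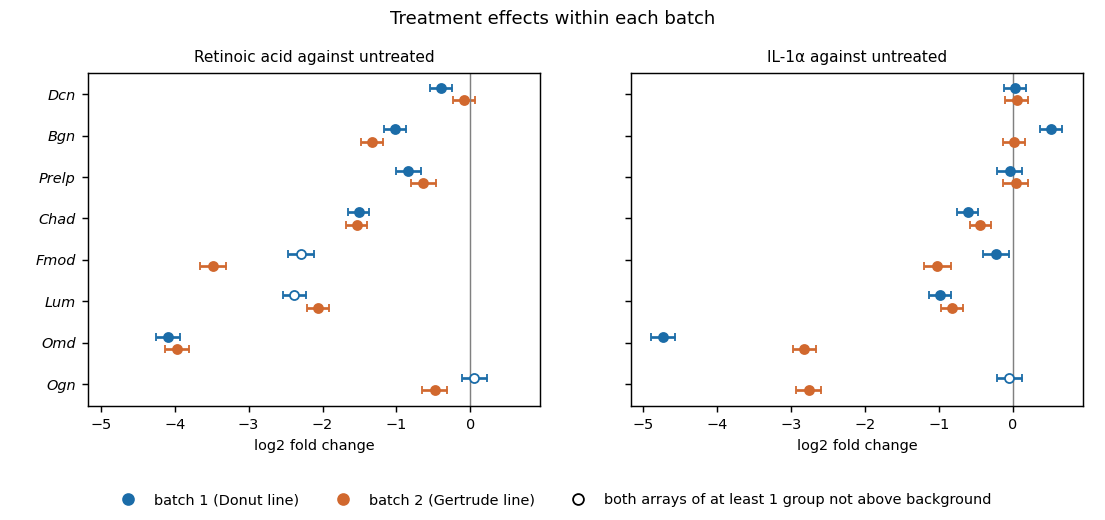
Log2 fold change of each of the 8 kept genes against untreated, in batch 1 and in batch 2, by the model with 1 mean per treatment and batch. Points are fold changes with bars of 1 SE, and open points mark values where both arrays of at least 1 group were not above background. Retinoic acid gave negative values in both batches for all genes but Ogn, whose brighter probe was not above background in batch 1. With IL-1α the values of Omd, -4.73 and -2.82, lie furthest apart among the genes other than Ogn.

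Osteoglycin (Ogn, ILMN_2718378), also called mimecan, lies next to Omd and could be measured by its brighter probe in batch 2 only. In batch 1 the probe was not above background on any of the 6 arrays, with values of 4.44 to 4.58. In batch 2 its levels were 9.01 and 8.41 untreated, 8.27 and 8.21 with retinoic acid and 5.92 and 5.99 with IL-1α. What this probe shows thus comes from batch 2.
There the log2 fold change was -2.76 with IL-1α (SE 0.17, adjusted p = 3.93e-08) and -0.48 with retinoic acid (SE 0.17, adjusted p = 0.0481). Retinoic acid was above IL-1α by 2.29 (adjusted p = 8.63e-08). Over both batches the fitted values, which include 6 arrays not above background, were -1.41 with IL-1α (adjusted p = 0.0236) and 1.20 for retinoic acid over IL-1α (adjusted p = 0.0458). The IL-1α call was lost without any of the 4 untreated and IL-1α arrays of batch 2, with adjusted p from 0.0774 to 0.0973. For retinoic acid over IL-1α, leaving out any of 8 arrays gave adjusted p from 0.0516 to 0.178, and these were both batch 2 arrays of IL-1α, all 4 of retinoic acid and replicate 2 of the untreated arrays in each batch.
The dimmer Ogn probe, ILMN_2740622, stood at 5.47 and 5.77 untreated in batch 1, then at 5.66 and 7.21 in batch 2. With IL-1α it stood at 5.39 and 5.17 in batch 2, and with retinoic acid at 5.70 and 5.40. In batch 1 it was not above background with either treatment, at 5.12 to 5.27. It gave a log2 fold change of -0.78 with IL-1α (adjusted p = 0.0364) and -0.68 with retinoic acid (adjusted p = 0.0533). For retinoic acid over IL-1α the dimmer probe gave 0.09 (limma's adjusted p = 0.825). In batch 2 it gave 0.27 (adjusted p = 0.601), where the brighter probe gave 2.29. The probes thus did not show the same pattern, and the dimmer one was detected in untreated batch 1 arrays where the brighter was not.

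Decorin (Dcn), which binds collagen fibrils and carries a single chondroitin or dermatan sulfate chain, was read differently by its 5 probes. Where each probe lies on the transcript is not given in the sources used here. The brightest, ILMN_2747959, stood at 13.27 and 13.58 untreated in batch 1, and at 13.50 and 13.27 in batch 2, then at 13.48, 13.43, 13.49 and 13.39 with IL-1α and 13.01, 13.05, 13.34 and 13.25 with retinoic acid. Its rank in raw brightness among all probes lay between 73 and 181 on every array. Its log2 fold change was 0.04 with IL-1α (95% interval -0.22 to 0.30, adjusted p = 0.823) and -0.24 with retinoic acid (95% interval -0.50 to 0.02, adjusted p = 0.138).
A rise with IL-1α was called for 2 of the 5 probes, where 15.2% of all kept probes were called higher. ILMN_2604695 stood at 5.32 and 5.03 untreated in batch 1, the second not above background, and at 9.0 and 8.72 in batch 2. IL-1α gave 7.18 and 7.19, then 11.22 and 11.13. It rose by 2.16 (log2, SE 0.13, adjusted p = 1.38e-07), with 2.01 and 2.32 in the 2 batches. With retinoic acid it was -0.11 (95% interval -0.38 to 0.17, adjusted p = 0.556), and both batch 1 arrays were not above background.
For ILMN_1254458 the untreated levels were 10.63 and 10.09 in batch 1, then 8.43 and 9.62 in batch 2, and those with IL-1α 10.73, 10.77, 10.88 and 11.08. Retinoic acid gave 8.59 and 8.58, then 8.31 and 8.06. No untreated array reached an IL-1α array, for which the exact permutation test gave p = 0.0286, two-sided. This probe rose by 1.17 with IL-1α (adjusted p = 0.00905) and fell by 1.31 with retinoic acid on the log2 scale (adjusted p = 0.00335), where the retinoic acid and untreated arrays overlapped (p = 0.0857 by the exact permutation test, two-sided). Its IL-1α effect was 0.39 in batch 1 and 1.96 in batch 2, and limma called the difference (1.57, adjusted p = 0.0363).
The other 2 probes changed in batch 1 and little in batch 2, where they were bright. ILMN_2596346 read 11.68 and 11.77 untreated, 12.42 and 12.44 with IL-1α and 10.50 and 10.47 with retinoic acid in batch 1, and between 13.53 and 13.77 on all 6 arrays of batch 2. ILMN_2716756 read 11.87 and 12.09, 13.29 and 13.17, and 11.30 and 11.03 in batch 1 in the same order, and between 13.28 and 13.76 in batch 2. Their log2 fold changes with IL-1α in batch 1 were 0.71 (adjusted p = 0.0014) and 1.25 (adjusted p = 3.09e-05), and in batch 2 they were -0.01 and 0.17 (adjusted p = 0.962 and 0.494).
Retinoic acid was below IL-1α by limma for 4 of the 5 Dcn probes, with log2 fold changes of -2.48 for ILMN_1254458, -2.27 for ILMN_2604695, -1.26 for ILMN_2716756 and -0.96 for ILMN_2596346, where 15.8% of all kept probes were called lower. The brightest probe gave -0.28 (adjusted p = 0.0908). All 5 values had the same sign, and in batch 2 ILMN_2596346 gave 0.03 (adjusted p = 0.908).

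**Figure D3:**
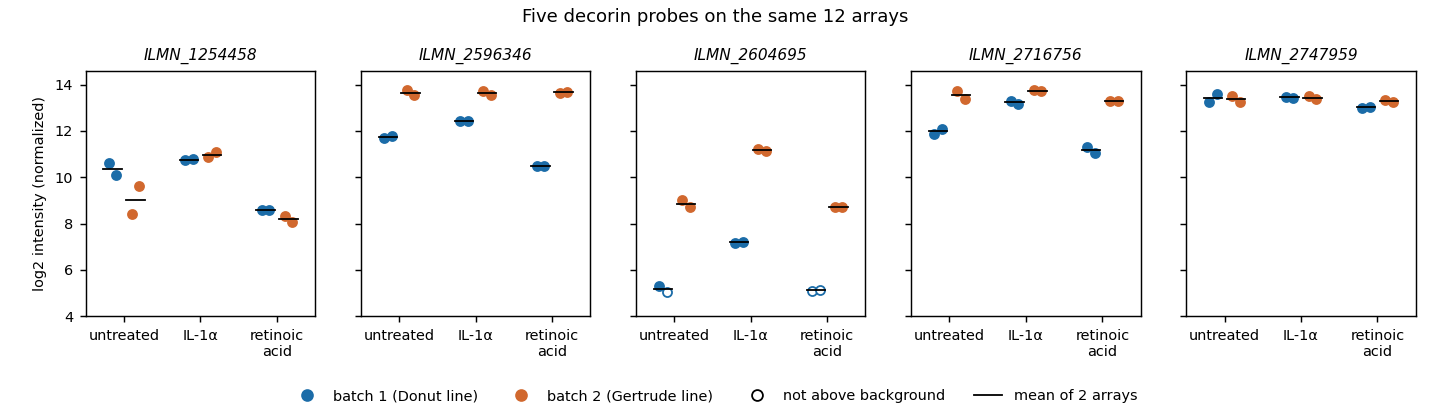
Log2 normalized intensity of the 5 decorin probes, with 1 point per array, treatments on the x axis, batches by colour, open points for arrays not above background and bars for the mean of 2 arrays. In batch 1 IL-1α arrays lie above the untreated arrays for 4 probes, and the probe at the far right stays between 13.01 and 13.58 on all arrays. Batch 2 arrays of ILMN_2596346 lie between 13.53 and 13.77 whatever the treatment.

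The lines, or batches, differed in the level of most of these genes. Of the 8 genes, 6 were higher in batch 2 and 1, Bgn, was lower, where 29.7% of symbols were called higher and 46.3% lower. Lum was higher by 3.84 on the log2 scale (SE 0.10), Omd by 3.04 (0.24), Fmod by 1.80 (0.16), Chad by 0.42 (0.09) and Prelp by 0.31 (0.10), while Bgn changed by -0.24 (0.10), with adjusted p from 8.26e-14 to 0.0443. The brighter Ogn probe, not above background in batch 1, was at least 4.82-fold higher in batch 2. The dimmer Ogn probe, detected on the untreated batch 1 arrays, gave 0.43 on the log2 scale and did not pass (limma's adjusted p = 0.0642). The brightest Dcn probe did not pass limma's test (0.07, 95% interval -0.14 to 0.28, adjusted p = 0.517). ILMN_2604695 was higher by 3.75, ILMN_2596346 by 2.11 and ILMN_2716756 by 1.40. ILMN_1254458 had the other sign and did not pass (-0.50, 95% interval -0.99 to -0.02, adjusted p = 0.0564).
Markers of fibroblasts, perichondrium and tendon, which also express these proteoglycans, were compared between the batches. Of 9 kept markers 5 were higher in batch 2 and 3 lower, and their summed intensity was higher in batch 2 within each group. The untreated sums in batch 1 and batch 2 were 3786 to 4176 and 6449 to 7803, those with IL-1α 2226 to 2447 and 3580 to 4000, and those with retinoic acid 3424 to 3457 and 7740 to 8568. Postn was detected on no array and Pi16 on 2, below the 4 needed. Whether these cells bear on the batch differences was not tested.

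How alike the genes were to each other and to other symbols is given by Pearson's r over the 12 arrays, after the batch and replicate means were subtracted. These values are a description, since the arrays share treatments, and carry no test. Lum and Chad had r = 0.99, Fmod and Chad 0.95, and Bgn and Prelp 0.94. Of the neighbours, Fmod and Prelp had 0.89, Dcn and Lum 0.72, and Omd and Ogn 0.24, the last from an Ogn probe not above background on the 6 batch 1 arrays. Among all symbols the closest to Bgn were EG432466, Dnm1 and Atp2b1 (0.992, 0.991 and 0.990), to Fmod Tmem107, Kdelr3 and 1810062G17Rik (0.990, 0.989 and 0.989), and to Lum Glt25d2, LOC100047619 and Nope (0.997, 0.997 and 0.995). For Prelp they were Prg4, the gene of lubricin, 2310046O06Rik and Aars (0.985, 0.984 and 0.984), for Chad, after Rab17 and Acan, LOC215999 (0.994), and for Omd Cox4i2, Itih5l and LOC100046905 (0.994, 0.992 and 0.990). Ogn was closest to Spc25, 0610009L18Rik and LOC100047252 (0.989, 0.977 and 0.973), and Dcn, by its brightest probe, to Arl2bp, Zfp768 and 6330503K22Rik (0.963, 0.959 and 0.954).

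Genes related to the 8 by family or by function were compared in the same fits. Beside the counts of each list stand the shares of all symbols. With retinoic acid 18.6% rose and 18.1% fell, and with IL-1α 15.1% rose and 15% fell. Of 8 other small leucine-rich proteoglycans 6 have a probe and 3 were kept. Podnl1, a podocan relative, rose by 2.07 with retinoic acid (adjusted p = 3.95e-08) and fell by 0.40 on the log2 scale with IL-1α (adjusted p = 0.0238). Podn fell by 1.54 with retinoic acid (adjusted p = 0.000114) and gave -0.50 with IL-1α (adjusted p = 0.101). Ecm2, the neighbour of Aspn, fell with both, with log2 fold changes of -0.53 and -0.56. Kera, Optc and Nyx, genes best known from the eye, were detected on no array.
The collagens these proteoglycans bind fell more often than they rose. Of 17 fibrillar collagens and partners kept, 14 fell and 1 rose with retinoic acid, and 9 fell and 1 rose with IL-1α. The largest falls in the list were those of Col9a1, Col11a1 and Col9a2 with retinoic acid, with log2 fold changes of -2.89, -2.83 and -2.31. Col6a1, Col6a2 and Col6a3, which form the type VI network that decorin and biglycan bind, fell with retinoic acid, with log2 fold changes of -1.68, -1.94 and -2.26, and with IL-1α they gave 0.23, 0.30 and -0.33 and did not pass.
Among 15 kept genes of collagen processing and cross-linking, 3 rose and 7 fell with retinoic acid, and 1 rose and 8 fell with IL-1α. Pcolce2, an enhancer of procollagen cleavage, fell by 4.81 with retinoic acid and by 2.25 with IL-1α, Pcolce fell by 2.07 with IL-1α, and Adamts3 fell by 1.97 with IL-1α.
The enzymes of sugar chains were divided. Of 11 kept genes for chain attachment and chondroitin or dermatan sulfate, 2 rose and 5 fell with retinoic acid and 3 rose and 4 fell with IL-1α. Xylt1, which starts the chains on the core protein, fell by 2.08 with retinoic acid (adjusted p = 4.25e-08) and gave -0.16 with IL-1α (adjusted p = 0.365). Of 4 kept genes for keratan sulfate, 3 rose with retinoic acid and 0 fell, while 1 rose and 2 fell with IL-1α. Chst2, a sulfotransferase of these chains, rose by 2.53 with retinoic acid, and Chst5 fell by 1.94 with IL-1α.
Of 12 kept genes in a list of proteinases thought to cut small leucine-rich proteoglycans, 8 rose and 2 fell with retinoic acid. With IL-1α 3 rose and 0 fell. Adamts9 rose by 3.92, Htra1 by 2.74 and Mmp14 by 2.07 with retinoic acid. As substrates of ADAMTS-9 the paper names versican and aggrecan, and cutting of the genes' products described here was not tested. Adamts4, whose catalytic domain is deleted in these mice, is among the 12, and Adamts5, detected on 1 array, is not.
Growth factor and receptor genes were mixed. Of 9 kept genes, made up of TGF-beta and BMP ligands, TGF-beta receptors and Wisp1, a matricellular gene of the CCN family, 3 rose and 3 fell with retinoic acid, and 1 rose and 3 fell with IL-1α. Wisp1 and Bmp4 fell with retinoic acid (log2 fold changes of -1.12 and -1.09), and Bmp2, detected on 6 arrays, rose with it (0.88). Tgfb3 fell with IL-1α (-0.79). Of 12 receptors of free decorin and biglycan, 6 rose and 1 fell with retinoic acid and 7 rose and 0 fell with IL-1α. Tlr2 rose by 1.25 with IL-1α and fell by 2.16 with retinoic acid, and Cd14, its partner, rose by 2.73 and 1.21.
Other cells of the femoral head were followed by their markers. The same shares of all symbols apply, 18.6% higher and 18.1% lower with retinoic acid and 15.1% and 15% with IL-1α. Counts of 1 in these short lists are therefore not read as a change of the cells. Of 8 macrophage and osteoclast markers 6 rose with retinoic acid, and 2 rose and 4 fell with IL-1α. Of 8 neutrophil markers 5 fell with retinoic acid and 0 changed with IL-1α by limma (2 at an unadjusted p under 0.05). The summed intensity of the neutrophil markers with retinoic acid did not move alike in the batches. In batch 1 it was 5523 to 5532 against 13611 to 16059 untreated, and in batch 2 13811 to 14662 against 9610 to 11477. Of 6 endothelial markers 1 rose with retinoic acid and 3 fell with IL-1α. Fibroblast, perichondrium and tendon markers fell in 7 of 9 cases with either treatment, and 2 rose with retinoic acid. For fat cells 3 of 4 markers fell and 1 rose with retinoic acid and 4 fell with IL-1α, for muscle 1 and 2 of 3 fell, and for red cells 1 of 4 fell with each.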

How the data were processed

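RNA of 12 cartilage cultures was measured on Illumina mouse bead arrays. Deposited were linear probe intensities, to which the authors had applied no background correction or normalization, and for each probe a detection score, a fraction from 0 to 1. Since high scores go with bright probes, the detection p was taken as 1 minus this score. For bead summary the software is not given in the sources used here, and 0 columns of values were left unassigned. The labels describe serum before treatment, the paper serum-free culture.

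In R 4.3.3 with limma 3.58.1, intensities were background-corrected, quantile-normalized and put on a log2 scale by neqc with an offset of 16. Probes detected at p under 0.05 on at least 4 of 12 arrays were kept, 18200 of 46632, for 14317 symbols. The linear model held treatment and a block of 4 levels, 1 per batch and replicate number, as the paper's methods describe. Within-batch values and their differences came from 6 means of treatment by batch, and batches were compared with treatment as a covariate. Limma's p-values were adjusted by Benjamini-Hochberg over all kept probes and called under 0.05. A gene is its brightest kept probe. Exact permutation tests exchanged the arrays of 2 treatments without regard to batch, although levels differed between the batches. A group's arrays number 4, which limits precision.

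The members and the lists of related genes and cell markers were chosen with earlier results of these data known. Named beside the 10 genes are the called genes of each list with the largest changes, 3 per list at most, and a few others chosen after their values were seen. Symbols are the array's, and genes absent under a listed symbol were not used. The fits were tested on simulated data. Promoters and gene order are RefSeq's, GRCm38.p6. Alternatives covered background correction, scaling, filters, blocks, variance moderation, single arrays, single batches and single probes.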

Additional observations from a re-analysis of the deposited data

Results flagged for a closer look

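Limma's test of the difference in effect between batch 2 and batch 1 made calls for 3 of the 8 genes by their brightest probes and for Dcn by 3 other probes, and in batch-wise comparisons of retinoic acid with untreated 2.7% of all symbols were called, of IL-1α with untreated 4.57%, and of retinoic acid with IL-1α 8.91%. For retinoic acid against untreated the difference on the log2 scale was -1.19 for Fmod, whose batch 1 arrays were not above background with retinoic acid, and 1.25 for Dcn probe ILMN_2596346. For IL-1α against untreated it was 1.91 for Omd, with 1 batch 1 array of IL-1α not above background, -2.71 for Ogn, which was not above background in batch 1, 1.57 for Dcn probe ILMN_1254458 and -1.08 for Dcn probe ILMN_2716756. For retinoic acid against IL-1α it was -1.79 for Omd, 2.18 for Ogn, 1.98 for ILMN_2596346 and 1.61 for ILMN_2716756. The 3 Dcn probes did not share a sign for IL-1α.

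Among 39 groups of 4 arrays examined for a value far from the others, 1 was flagged. It was the IL-1α replicate 1 array of batch 2 for Prelp, at 13.78. The cutoff flags about 1 in 20 by chance if all 4 arrays vary around 1 mean. These groups pool 2 batches, so that this rate does not hold for them. Where levels differ widely between the batches, a single value can hardly be flagged.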

How the results depend on the processing

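The numbers of genes called were 6 for retinoic acid against untreated, 5 for IL-1α against untreated, 6 between the treatments, 3 for effects called as unequal in the batches and 7 between batches. When detection on all 12 arrays was required, 4 genes were tested and the numbers were 3, 1, 3, 0 and 3 (for the 0, limma gave 1 at an unadjusted p under 0.05), because fewer genes were tested. Without batch and replicate in the model IL-1α against untreated gave 0 (2 at an unadjusted p under 0.05) and retinoic acid against IL-1α gave 3. With no filter IL-1α gave 3. Counting every probe gave 8 of 13 for IL-1α and 10 of 13 between the treatments. Leaving out 1 array gave 6 to 6, 3 to 5, 5 to 6, 2 to 3 and 6 to 7 in the order above.

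The replicate numbers share only a number within a batch. Deviations of same-numbered arrays had correlations of 0.00266 to 0.062 in batch 1 and -0.108 to 0.391 in batch 2. Without the replicate block, with treatment and batch only, the numbers for the 3 comparisons of treatments were 6, 5 and 6.

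Of 540 recomputed values of single genes, 489 kept their direction and their side of the threshold, 38 lost the call, 4 gained it and 9 changed sign. The sign changed only for values that were not called. Leaving out 1 array gave -0.49 to 0.16 for Ogn with retinoic acid, -0.02 to 0.12 for Dcn with IL-1α, -0.10 to 0.07 for Prelp with IL-1α (-0.06 without replicate 1 of the IL-1α batch 2 arrays) and -0.65 to 0.08 for Omd between the treatments (0.02 without that array), and normalization within each batch gave -0.01 for Prelp with IL-1α. The cause was not tested. Near background, signal limits Ogn, and Fmod and Lum in batch 1.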
